A study of Mus musculus with 24 samples.

Results

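The genes described here handle arginine, nitric oxide and itaconate in mouse alveolar macrophages, the resident phagocytes of the airspace. They are 10 of the 56691 genes in the count table, taken as a named set by symbol: the arginases Arg1 and Arg2, the inducible nitric oxide synthase Nos2 and Gch1 (an enzyme of its cofactor), the citrulline-recycling enzymes Ass1 and Asl, the polyamine enzyme Odc1, the cationic amino acid carriers Slc7a1 and Slc7a2, and the itaconate enzyme Acod1. The study collected macrophages by lung lavage at 5 postnatal ages, 1, 3, 7, 21 and 49 days (D1 to D49), pooled several mice, and held the cells for 4 h in medium without LPS (control) or with 400 ng/mL of LPS, the endotoxin of E. coli 055:B5. No genetic change, strain or sex is stated in the labels used here. The D1 groups held 2 control and 3 LPS libraries, the D7 groups 2 of each, and the D3, D21 and D49 groups 3 control and 2 LPS libraries. The labels do not say that replicate libraries came from separate pools of mice, so every p-value measures the spread between these libraries, which may be technical.

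Arginine enters macrophages through cationic amino acid carriers and is then split between competing enzymes. Nitric oxide synthase converts it to nitric oxide and citrulline, and citrulline can be rebuilt into arginine by argininosuccinate synthase (Ass1) and lyase (Asl). Arginase instead makes ornithine and urea, and ornithine decarboxylase (Odc1) starts the polyamines from ornithine. Acod1 makes itaconate from the cis-aconitate of the citric acid cycle, and in mouse macrophages both Nos2 and Acod1 are known as genes induced by endotoxin.

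Each library held 15.8 to 23.3 M counts, and all 10 genes passed the filter on low values (at least 2 libraries with an FPKM of 1 or higher), as did 11774 genes in all. Levels are given as TMM-scaled CPM, counts set to a common library size after correction for composition, and differences as log2 fold changes ± SE from edgeR's quasi-likelihood test. A gene passed at a Benjamini-Hochberg adjusted p under 0.05 over all tested genes. The 13 alveolar macrophage markers on the list were all tested. Their summed level ran from 7200 CPM in D1 control to 51200 CPM in D49 control libraries, a range set largely by Chil3 (186 to 35500 CPM) and Lpl (1420 to 14100 CPM), while Siglecf held 17.6 to 258 CPM and Itgax 234 to 789 CPM. Libraries also differed in how genes rich or poor in G and C were represented: this GC deviation was within 1 log2 unit in 14 libraries and beyond it in 10, with GC-rich genes over-represented only at D1 and D3 and GC-poor ones only at D21 and D49. Several results are also given with GC deviation as a covariate or from a fit of the 14 libraries. Some groups have 1 library in that fit, which is assumed to vary like the others. These include all D1 and D49 groups, so D49 against D1 there sets 1 library against 1.

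The promoter is shown for Acod1, which rose with LPS at every age, and for Gch1, a nitric oxide gene that passed at no age. The sequences are the 250 bases before the start in RefSeq, build GRCm38.p6, which is not the build named for the counts. They lie at chr14:103046762-103047011 on the plus strand for Acod1 and at chr14:47189414-47189663 on the minus strand for Gch1, and capitals mark matches to the motifs searched.
Acod1: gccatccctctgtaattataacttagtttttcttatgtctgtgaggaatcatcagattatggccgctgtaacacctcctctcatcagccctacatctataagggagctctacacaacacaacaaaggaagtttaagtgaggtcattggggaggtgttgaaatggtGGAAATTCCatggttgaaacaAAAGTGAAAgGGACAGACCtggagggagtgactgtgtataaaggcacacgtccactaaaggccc
Gch1: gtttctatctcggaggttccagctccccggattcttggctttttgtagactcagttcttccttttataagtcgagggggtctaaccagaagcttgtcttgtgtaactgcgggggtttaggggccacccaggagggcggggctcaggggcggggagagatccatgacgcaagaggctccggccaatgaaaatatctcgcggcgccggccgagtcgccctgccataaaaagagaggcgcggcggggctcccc
The search covered both strands for a kappa B motif (GGNNTNTCC), an interferon-stimulated response element (AAANNGAAA), a gamma-activated site (TTCNNNGAA), AP-1 (TGANTCA), C/EBP (TTNNGCAA) and an E-box (CACGTG). In Acod1 the kappa B motif matched at -85 to -77 and at -54 to -46, both on the strand opposite to the one printed, and the interferon-stimulated response element matched the printed strand at -64 to -56. Gch1 held none of these letters in this window. Of 32851 promoters of the same length, 14.5% held the kappa B motif and 9.37% the interferon element, while the shares for the gamma-activated site, AP-1, C/EBP and the E-box were 7.02%, 6.75%, 9.56% and 6.02%. Ass1 (E-box), Odc1 (kappa B) and Slc7a1 (AP-1 and a gamma-activated site, at different starts) held other matches, and a match is a description of letters, not of binding. Only 5 of the 10 members had a promoter in this set. Arg1, Arg2, Nos2, Asl and Slc7a2 had none and were not searched.

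LPS raised 3 of the 10 genes at every age: the synthase gene Nos2, the itaconate gene Acod1 and the arginine carrier Slc7a2. The arginase gene Arg2 passed at D7 only, and no member fell at any age. That made 3 members raised at D1, D3, D21 and D49 and 4 at D7. Among all tested genes the share that rose was 3.74% at D1, 4.43% at D3, 5.15% at D7, 6.77% at D21 and 5.24% at D49, and the share that fell was 1.93%, 2.57%, 4.47%, 6.74% and 4.98% in the same order. The members' median log2 fold change was 0.70 at D1, 0.63 at D3, 0.87 at D7, 0.74 at D21 and 0.79 at D49. Medians of all tested genes lay between -0.06 and 0.02. The members were chosen with earlier results of these data known, so their medians are a description. Where libraries are said below to lie apart, this too is a description and no test. With 2 or 3 libraries a group, unchanged genes can also lie apart, and the share of all tested genes that did is not given here.

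**Figure D1:**
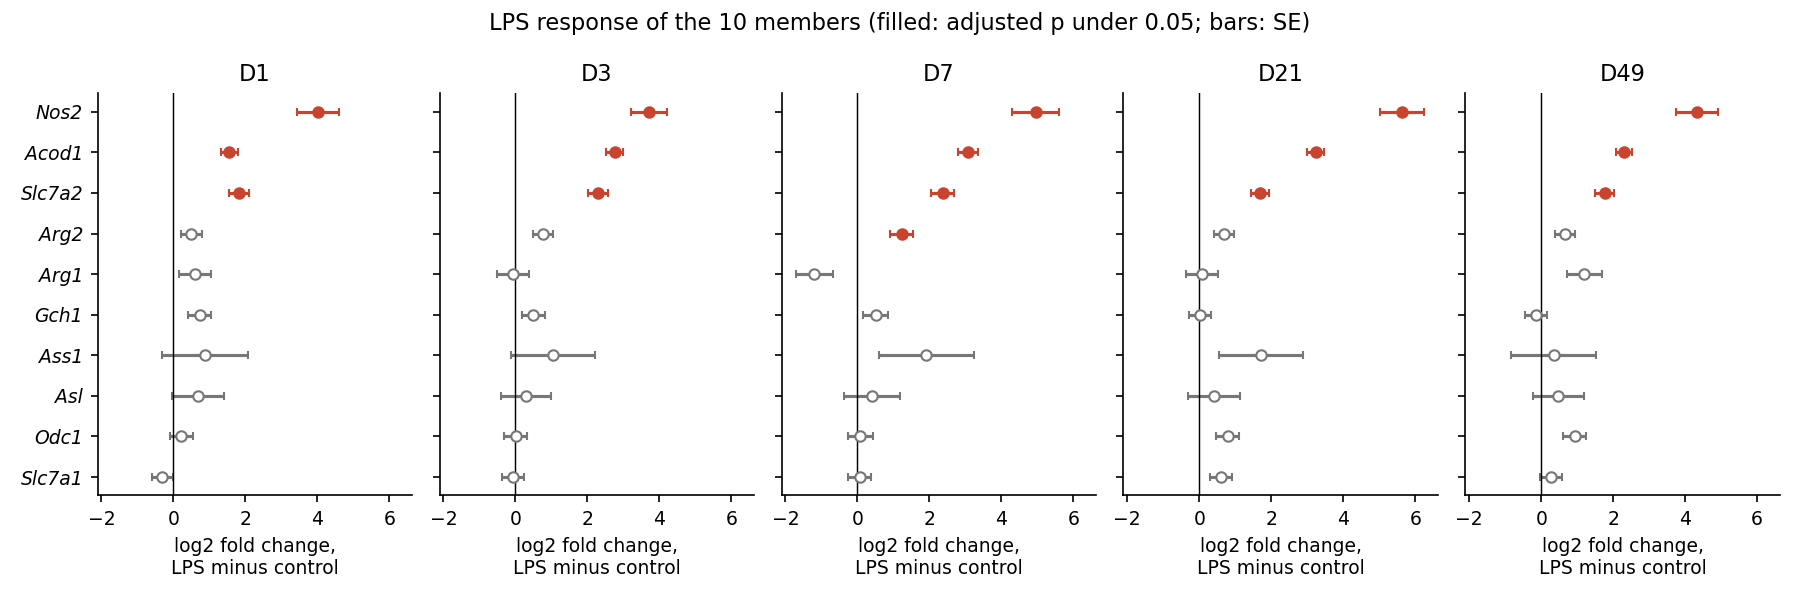
LPS minus control log2 fold change (x axis) of the 10 members (y axis), 1 panel per age, with bars for the SE and filled points where the adjusted p was under 0.05. Nos2, Acod1 and Slc7a2 are filled at all 5 ages and Arg2 at D7, and Nos2 lies farthest to the right in each panel.

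Nos2, which makes nitric oxide in activated macrophages, was near 0 in controls. Control libraries held 1.41 and 1.78 CPM at D1, 1.22, 0.556 and 1.63 at D3, 0.411 and 0.303 in the D7 pair, 0.172, 0.0664 and 0.250 at D21, and 0.156, 0.0650 and 0.376 at D49. LPS libraries held 18.6, 31.6 and 27.5 CPM at D1, 13.3 and 16.4 at D3, 11.3 and 11.2 in the D7 pair, 11.2 and 5.68 at D21, and 5.58 and 2.41 at D49. All LPS libraries lay above all controls of their age, and above the controls of every other age too. The log2 fold change was 4.02 ± 0.58 at D1 (edgeR adjusted p = 0.00021), 3.70 ± 0.50 at D3 (6e-05), 4.95 ± 0.65 at D7 (3.9e-05), 5.63 ± 0.60 at D21 (3.1e-06) and 4.33 ± 0.59 at D49 (6.5e-05). The older controls rest on few counts (1 to 4 at D21 and 1 to 5 at D49), and Nos2 passed the filter on low values only through LPS libraries. As ratios of summed counts the response was 16.1-fold at D1 (exact 95% interval 12.8 to 20.6), 13.1-fold at D3 (10.3 to 16.8), 31.5-fold at D7 (18.6 to 58.2), 52.8-fold at D21 (26.4 to 123) and 21.0-fold at D49 (10.7 to 46.9), intervals that cover counting error only. Without D49 Con replicate 3 the D49 value was 5.07, and without D49 LPS replicate 1 it was 3.63. A fit of the D49 libraries alone gave an adjusted p of 0.051, where the 15 alternatives for D49 ranged from 6.8e-11 to 0.051.

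Acod1 took between 0.0212% and 0.534% of a library's counts. Controls held 1552 and 1405 CPM at D1, 719, 671 and 707 at D3, 521 and 510 in the D7 pair, 265, 302 and 209 at D21, and 595, 568 and 611 at D49. LPS libraries held 4538, 5616 and 2842 CPM at D1, 4984 and 4523 at D3, 4375 and 4308 in the D7 pair, 2523 and 2345 at D21, and 3033 and 2746 at D49. No LPS library overlapped a control of any age, and the control groups themselves were tight and ordered without overlap as D1, D3, D49, D7 and D21, from high to low. The log2 fold change was 1.55 ± 0.24 at D1 (adjusted p = 0.00039), 2.76 ± 0.23 at D3 (1.4e-07), 3.07 ± 0.27 at D7 (3.1e-07), 3.23 ± 0.23 at D21 (3e-08) and 2.29 ± 0.22 at D49 (1.8e-06). The fold was smallest where the control level was highest, at D1. A fit of the D1 libraries alone gave an adjusted p of 0.12 for that age, with a range of 4.9e-09 to 0.12 over its 15 alternatives.

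Slc7a2, the inducible cationic amino acid carrier, took between 0.103% and 1.15% of a library's counts. Controls held 2122 and 1603 CPM at D1, 1459, 880 and 1693 at D3, 1966 and 1908 in the D7 pair, 2914, 4406 and 3432 at D21, and 3395, 3624 and 5081 at D49. LPS libraries ran from 5482 to 7744 CPM at D1, from 5854 to 7298 at D3, from 9368 to 10660 at D7, from 11000 to 12110 at D21 and from 13370 to 14000 at D49. At each age the LPS libraries lay above the controls, and both states stood higher at D21 and D49 than at D1 and D3. The log2 fold change was 1.82 ± 0.29 at D1 (adjusted p = 0.00051), 2.29 ± 0.27 at D3 (1.1e-05), 2.37 ± 0.31 at D7 (3.5e-05), 1.69 ± 0.26 at D21 (0.0002) and 1.76 ± 0.26 at D49 (0.00016). Within 1 age alone the adjusted p was 0.052 at D1 and 0.057 at D49, the largest of the 15 alternatives at each, and the smallest were 4.6e-09 and 4.4e-10. Exons of Slc7a2 overlap an annotated gene on the opposite strand, and whether counting used strand is not given in the sources used here.

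**Figure D2:**
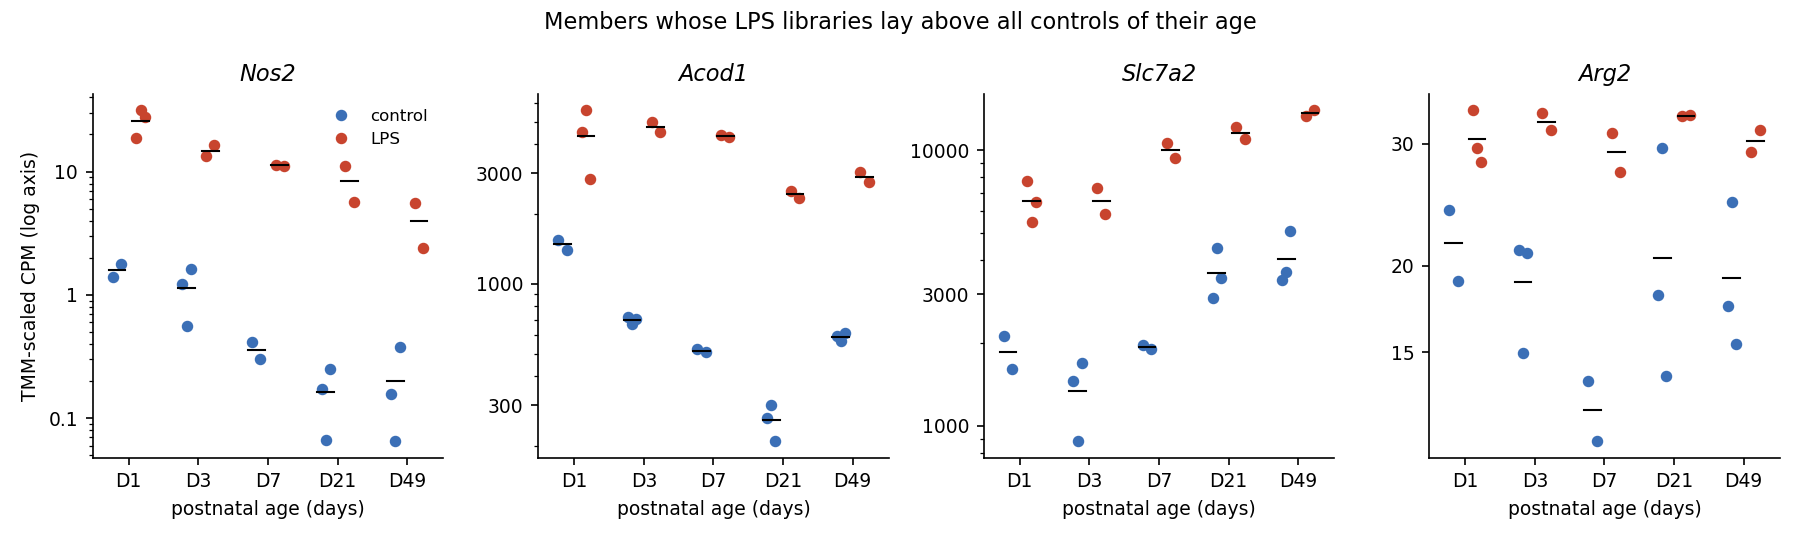
TMM-scaled CPM (log axis) by postnatal age for Nos2, Acod1, Slc7a2 and Arg2, 1 point per library and a black bar at the group mean, controls in blue and LPS in red. In each panel the LPS points lie above all control points of their age, and the panels for Nos2 and Slc7a2 slope in opposite directions with age.

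The second carrier, Slc7a1, the constitutive one in many cell types, passed at no age. Its libraries ranged from 52.3 to 156 CPM, with no gap between neighbouring group means larger than the spread of libraries. Its LPS libraries lay below the controls at D1 (85.0, 108 and 114 against 118 and 135 CPM) and above them at D21 (125 and 114 against 83.1, 64.8 and 88.2 CPM). The corresponding log2 fold changes were -0.31 (adjusted p = 0.83) and 0.60 (0.22), and the test of a response that differs across ages did not pass for Slc7a1 (adjusted p = 1.0). Per transcript length, Slc7a2 exceeded Slc7a1 in every library, by 7.13 to 102 times in FPKM in controls and by 64.3 to 262 times after LPS.

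Arg2, the mitochondrial arginase, was the arginase with the higher level per length, at group means of 8.68 to 23.1 FPKM against 0.27 to 5.65 FPKM for the cytosolic Arg1. Arg2 in controls was 24.1 and 19.0 CPM at D1, 21.1, 15.0 and 20.9 at D3, 13.6 and 11.2 in the D7 pair, 18.1, 29.6 and 13.9 at D21, and 17.5, 24.7 and 15.4 at D49. After LPS it was 33.5, 29.6 and 28.3 CPM at D1, 33.2 and 31.3 at D3, 31.1 and 27.3 in the D7 pair, 32.9 and 32.9 at D21, and 29.2 and 31.4 at D49. LPS and control libraries did not overlap at any age, and the LPS libraries of all ages lay between 27.3 and 33.5 CPM while the controls ran from 11.2 to 29.6 CPM. The log2 fold change passed at D7 (1.23 ± 0.32, adjusted p = 0.016) and was 0.50 ± 0.29 at D1 (0.50), 0.76 ± 0.28 at D3 (0.14), 0.68 ± 0.28 at D21 (0.13) and 0.66 ± 0.28 at D49 (0.17). The D7 call ended when any 1 of its 4 libraries was left out (adjusted p = 0.072 and 0.18 without control replicates 1 and 2, 0.12 and 0.056 without LPS replicates 1 and 2), over a range of 0.0003 to 0.18 in 14 alternatives. With GC deviation as a covariate Arg2 passed at D3 (0.79, adjusted p = 0.026), D7 (1.28, 0.0011), D21 (0.82, 0.023) and D49 (0.76, 0.035). Exons of Arg2 overlap Vti1b on the opposite strand, a gene with 448 to 1605 counts per library, so part of the reads may not be separable without strand.

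Arg1, the arginase long used as a marker of macrophages activated by interleukin 4 and 13, did not pass at any age after LPS. Controls held 9.04 and 7.53 CPM at D1, 4.09, 4.11 and 3.71 at D3, 4.42 and 2.98 in the D7 pair, 5.03, 2.06 and 4.19 at D21, and 0.468, 0.910 and 0.451 at D49. LPS libraries held 11.7, 9.82 and 16.3 CPM at D1, 3.45 and 4.10 at D3, 2.11 and 1.12 in the D7 pair, 3.91 and 4.07 at D21, and 0.706 and 2.10 at D49. LPS libraries lay above the controls at D1 and below them at D7 and overlapped them elsewhere. The log2 fold change was 0.60 at D1 (adjusted p = 0.69) and -1.20 ± 0.51 at D7 (0.18), and the D7 value passed in 1 of 14 alternatives, the fit of the 14 libraries (-1.20, 0.029; range of the alternatives 0.029 to 0.82). In FPKM the Arg2 to Arg1 ratio ran from 2.70 to 4.70 in D1 libraries of both states and from 23.3 to 64.5 in D49 libraries. Arg1 at D49 rests on few counts, 6 to 14 per control library and 11 to 35 per LPS library.

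Gch1, the first enzyme of tetrahydrobiopterin synthesis and so of a cofactor that Nos2 needs, passed at no age and under none of the alternatives for the LPS response. Its LPS libraries lay above the controls at D1 (93.2, 109 and 118 against 64.1 and 64.2 CPM), D3 (71.5 and 80.1 against 49.8, 65.6 and 44.7) and D7 (68.1 and 53.5 against 44.0 and 41.1). They overlapped the controls at D21 (67.0 and 49.3 against 58.8, 74.9 and 37.8) and at D49 (70.8 and 57.0 against 66.0, 44.1 and 101). The log2 fold changes from D1 to D49 were 0.73 ± 0.32, 0.50, 0.51, 0.02 and -0.14, with adjusted p of 0.26, 0.51, 0.51, 0.98 and 0.85. Odc1 likewise passed at no age. Its libraries held 139, 142 and 140 CPM after LPS against 121 and 119 in controls at D1, 191 and 232 against 147, 101 and 119 at D21, and 171 and 157 against 124, 95.9 and 38.4 at D49. These libraries did not overlap at those 3 ages, with log2 fold changes of 0.22 (adjusted p = 0.94), 0.79 ± 0.32 (0.12) and 0.93 ± 0.32 (0.074). Without D49 Con replicate 1 the D49 value passed (1.29, adjusted p = 0.011), as it did with the GC covariate (0.83, 0.023), over a range of 0.011 to 0.48 in 15 alternatives.

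**Figure D3:**
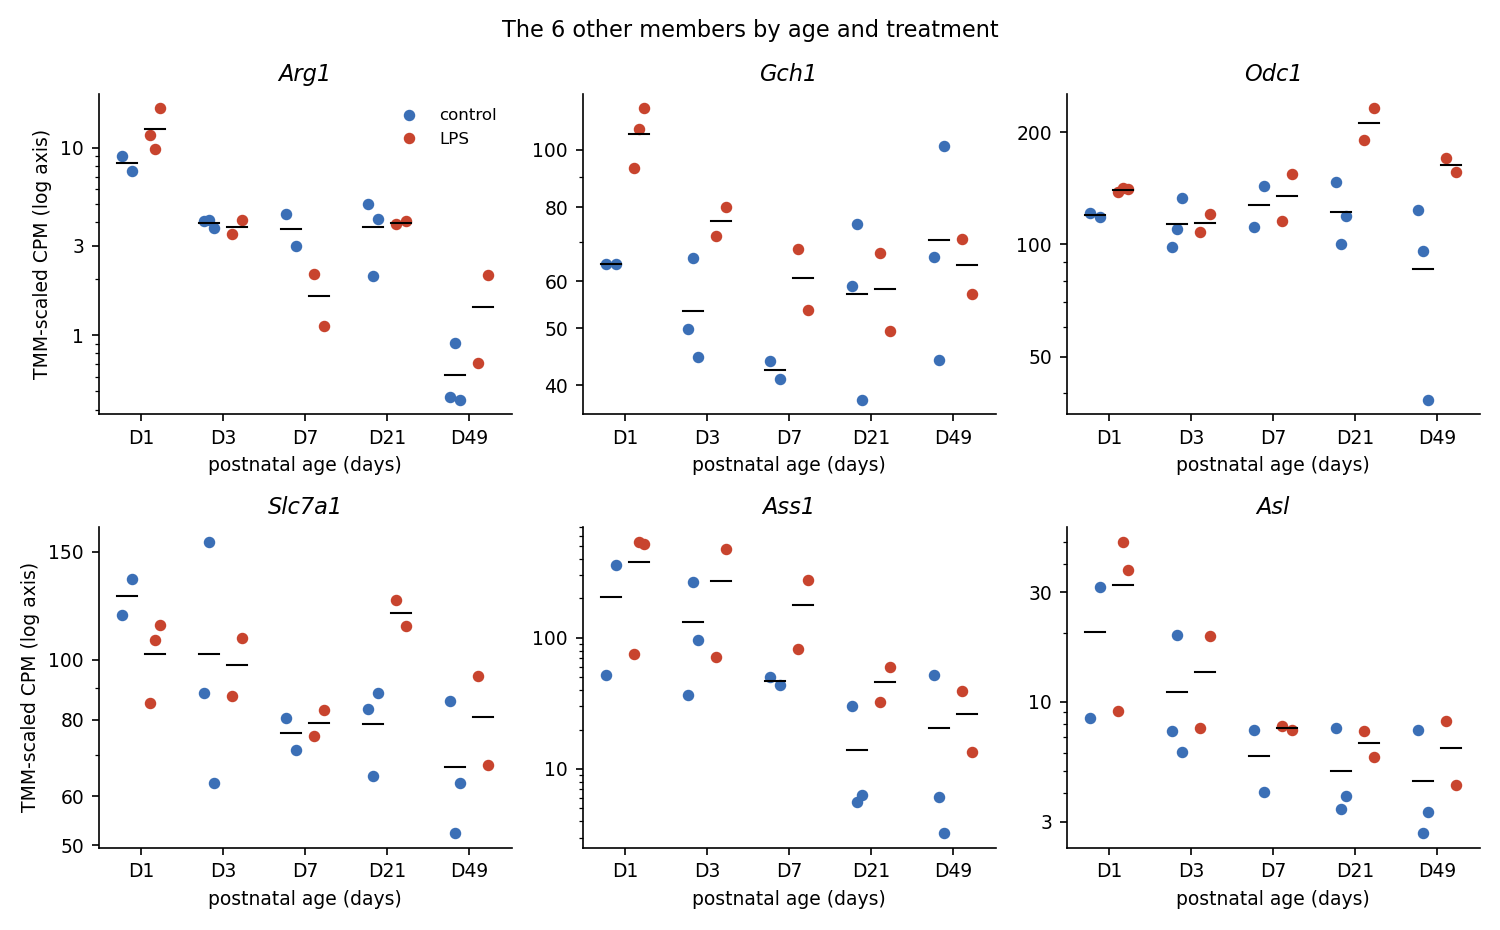
TMM-scaled CPM (log axis) by postnatal age for Arg1, Gch1, Odc1, Slc7a1, Ass1 and Asl, 1 point per library and a black bar at the group mean, controls in blue and LPS in red. Arg1 points descend from D1 to D49, and libraries of 1 group spread widely for Ass1, whose D1 controls are 52.3 and 359 CPM.

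From D1 to D49, 1 member, Slc7a2, rose and 6 fell in controls (Arg1, Nos2, Acod1, Ass1, Asl and Slc7a1), where 21.0% of all tested genes rose and 21.9% fell. In LPS-treated cells Slc7a2 rose and 4 fell (Arg1, Nos2, Ass1 and Asl), where 16.6% rose and 14.1% fell. The members' median log2 change was -1.1 in controls and -0.66 after LPS, against -0.03 and -0.05 over all tested genes. Tested as any change among the 5 ages, 5 members passed in controls (34.7% of all genes did) and 4 in LPS-treated cells (16.7% of all genes). With the GC covariate Ass1 passed after LPS as well (adjusted p = 0.0084). The 5 were Arg1, Nos2, Acod1, Slc7a2 and Ass1, and Ass1 (adjusted p = 0.046) no longer passed without any 1 of 9 control libraries, among them D1 replicate 2 (0.13), nor with the GC covariate (0.31), in the 14 libraries (0.78) or with the replicate block (0.15). The 4 were Arg1, Nos2, Acod1 and Slc7a2. Nos2 (0.0094) did not pass in the 14 libraries (0.072) or with the GC covariate and replicate block together (0.062). Slc7a2 (0.024) did not pass with the GC covariate (0.056). Slc7a2 was past the threshold no more without any 1 of 7 LPS libraries, D1 replicates 2 and 3, D3 replicate 2 and both replicates at D21 and D49 (0.052 to 0.18), and Acod1 (0.026) without any 1 of 5, D3 replicate 1 and both at D21 and D49 (0.055 to 0.14). These are bulk samples, in which fewer cells of a type and less RNA per cell cannot be told apart.

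Arg1, Nos2 and Acod1 fell in controls in the main fit and the GC covariate fit. They were also lower in the fit of the 14 libraries, which sets 1 D49 control library against 1 at D1. Arg1 was 3.75 ± 0.48 log2 units lower at D49 (edgeR adjusted p = 3.7e-05), and lower by 3.16 ± 0.52 after LPS (0.00033). The latter value was -4.22 without D49 LPS replicate 2 and -2.54 without D49 LPS replicate 1, both still past the threshold. Nos2 fell by 3.01 ± 0.59 in controls (adjusted p = 0.0016), and by 2.70 ± 0.53 after LPS (0.0017). In controls it was -3.73 without D49 Con replicate 3, and after LPS it was -3.39 without D49 LPS replicate 1 and had an adjusted p of 0.05, short of the threshold, without D49 LPS replicate 2. On the log2(FPKM + 1) scale, which shrinks low genes, the control difference of Nos2 was -0.445 (limma adjusted p = 0.07). The alternatives for Nos2 spanned 5.1e-06 to 0.07 in controls and 8.3e-07 to 0.05 after LPS. Acod1 fell by 1.32 ± 0.22 in controls (0.00043) and was -0.59 ± 0.23 after LPS (0.057). The latter passed in 7 of 14 alternatives, among them the 14 libraries (-0.705, 0.0079), DESeq2 (-0.621, 0.031), the replicate block (-0.653, 0.03) and the fit without D1 LPS replicate 3 (-0.815, 0.01), over a range of 0.0079 to 0.27. After LPS its highest group mean was at D3, with 4754 ± 326 CPM (SD, n = 2), and its lowest at D21, with 2434 ± 126 CPM (n = 2).

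Slc7a2 rose with age, by 1.11 ± 0.28 log2 units in controls (edgeR adjusted p = 0.007) and by 1.06 ± 0.26 after LPS (0.0078). This increase was smaller with the GC covariate, 0.43 in controls (adjusted p = 0.24) and 0.50 after LPS (0.096), neither of which passed. In the 14 libraries it was 0.62 and 0.66, each from 1 library against 1. Leaving out D1 Con replicate 2 gave 0.925 (0.14), and leaving out D1 LPS replicate 2 or D49 LPS replicate 2 gave 0.93 (0.064) and 0.947 (0.14). The alternatives spanned adjusted p of 0.00076 to 0.24 in controls and 0.0035 to 0.14 after LPS. Slc7a1 was lower in D49 controls (-0.92 ± 0.30, adjusted p = 0.022), a call that ended without D1 Con replicate 2 (0.19) or D49 Con replicate 2 (0.078) and with the GC covariate (-0.26, 0.68).

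Ass1 and Asl, which rebuild arginine from citrulline, spread widely within groups, with a ratio of highest to lowest library of up to 16.2 for Ass1 (D49 controls) and 5.46 for Asl (D1 LPS), while Nos2 reached 5.78 in the few counts of its D49 controls. Ass1 was 52.3 and 359 CPM in D1 controls, 36.4, 266 and 96.9 at D3, 50.4 and 44.0 in the D7 pair, 30.0, 5.58 and 6.31 at D21, and 52.5, 6.11 and 3.23 at D49. After LPS it was 74.7, 542 and 516 CPM at D1, 71.3 and 476 at D3, 82.4 and 275 in the D7 pair, 32.5 and 59.4 at D21, and 39.3 and 13.4 at D49. Among controls 1 library stood well above the rest of its group at D1, D3, D21 and D49. Asl ranged from 2.67 to 50.0 CPM, and its LPS and control libraries overlapped at every age. Neither gene passed after LPS at any age. The largest Ass1 values were 1.92 ± 1.33 at D7 (adjusted p = 0.55) and 1.71 ± 1.17 at D21 (0.38), the 2 ages at which its LPS libraries lay above all controls. The D7 value passed in 5 of 14 alternatives: the GC covariate (1.18, 0.041), covariate and replicate block (1.13, 0.036), the 14 libraries (1.93, 0.039), the D7 libraries alone (1.91, 0.038) and no filter on low counts (1.94, 3.6e-05), over a range of 3.6e-05 to 1.0. Without that filter Ass1 also passed at D3 (1.18, 0.018) and D21 (1.75, 1.4e-05).

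The levels of Ass1 and Asl followed the GC deviation of the library. In the 5 libraries with a deviation above 1, Ass1 was 266 to 542 CPM, with a median of 476. In the 14 libraries within 1 it was 30.0 to 275 CPM (median 52.4), and in the 5 below -1 it was 3.23 to 13.4 CPM (median 6.11), so the highest and lowest sets did not overlap. Asl was 19.3 to 50.0, 4.04 to 9.14 and 2.67 to 4.33 CPM in the same 3 sets. All 5 libraries above 1 were from D1 or D3, and all 5 below -1 were from D21 or D49. Age and GC deviation thus cannot be told apart between the highest and lowest sets. The GC coefficient was 1.30 ± 0.10 log2 per unit for Ass1 (adjusted p = 1.5e-11) and 0.75 ± 0.08 for Asl (3.2e-09), where 58.6% of all tested genes had a coefficient that passed. The transcripts of Ass1 and Asl hold 54.7% and 55.5% G and C, the 2 highest among the members. Nos2, with 53.9%, had a coefficient that did not pass (0.13 ± 0.13, adjusted p = 0.42).

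**Figure D4:**
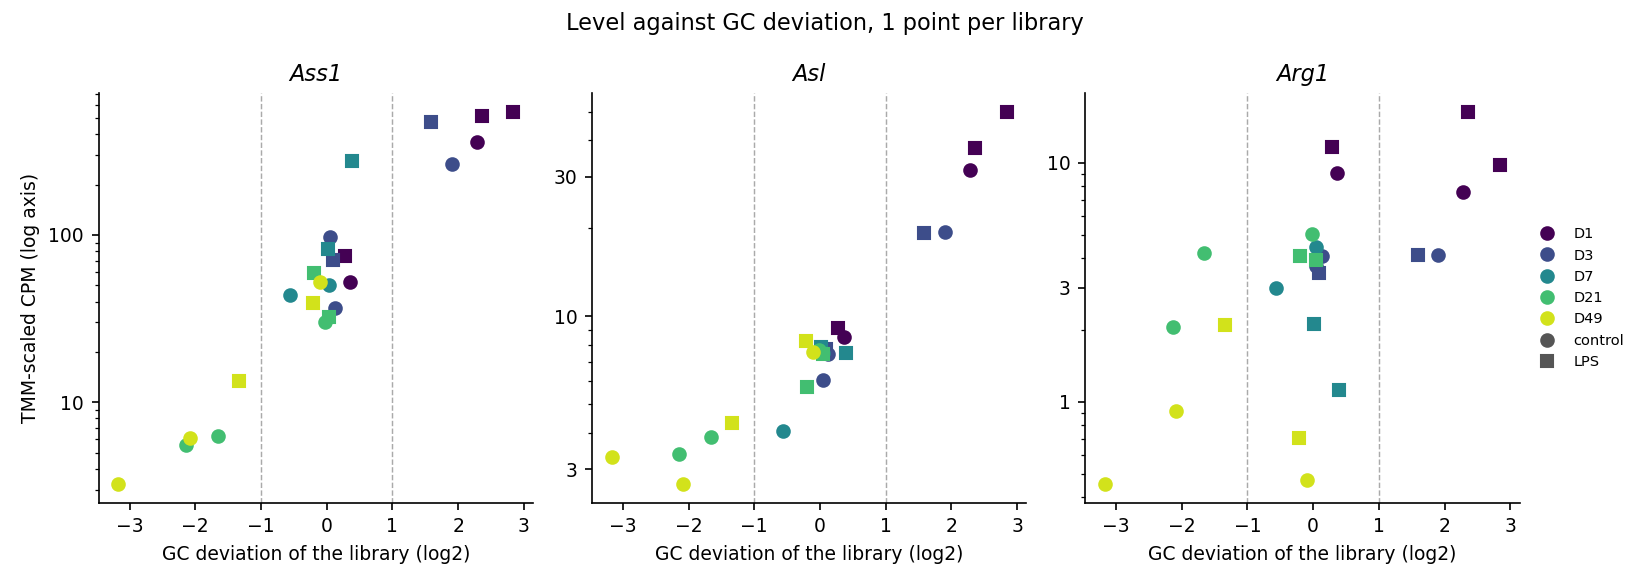
TMM-scaled CPM (log axis) against the GC deviation of each library (log2 units) for Ass1, Asl and Arg1, 1 point per library, coloured by age, circles for controls and squares for LPS. Dashed lines mark -1 and 1. Ass1 and Asl climb with GC deviation, while between the lines Arg1 is highest in D1 and lowest in D49 libraries.

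The age differences of Ass1 and Asl moved with that covariate. In the main fit Ass1 was -3.31 ± 1.20 (edgeR adjusted p = 0.035) and Asl -2.15 ± 0.70 (0.023) in D49 against D1 controls, and -3.84 ± 1.40 (0.045) and -2.36 ± 0.77 (0.029) after LPS. With the covariate they were 0.28 (0.81) and 0.29 (0.74) in controls, and -0.23 (0.81) and -0.18 (0.82) after LPS. In the 14 libraries Ass1 was -0.05 and Asl -0.23 in controls, and after LPS they were -1.05 and -0.278. Each of these values sets 1 library against 1. In controls the calls also ended without D1 Con replicate 2 (-1.34, 0.53 for Ass1 and -0.913, 0.48 for Asl), without D49 Con replicate 2 (0.11 and 0.077) or without D49 Con replicate 3 (0.10 and 0.066). The control values grew to -5.45 for Ass1 and -2.75 for Asl without D49 Con replicate 1, and to -4.12 and -2.81 without D1 Con replicate 1. After LPS they ended without D1 LPS replicate 2 or 3, or either D49 LPS replicate, with the Ass1 value reaching -4.78 without D49 LPS replicate 1.

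Arg1, Ass1 and Asl are also genes of the liver cell, so hepatocyte transcripts were summed over 13 genes, the whole list. The sum was 18.1 to 18.9 CPM in D1 controls and 114 to 174 CPM in D1 LPS libraries. It was 175 to 284 and 201 to 227 CPM at D3, 320 to 426 and 34.4 to 86.4 CPM at D7, 174 to 450 and 349 to 427 CPM at D21, and 20.1 to 86.5 and 22.1 to 96.4 CPM at D49, control and LPS in turn. Albumin (Alb) ran from 7.45 to 305 CPM, and Mbl1 was at 0 in the D1 controls. Arg1 was highest in the D1 groups and lowest in the D49 groups. The hepatocyte sum was lowest in D1 controls, with D49 controls from 20.1 CPM. The part of liver transcripts in the age pattern of Arg1 was not tested. At D7 and at D1 the hepatocyte sum and Arg1 differed with LPS in the same direction, as did Cps1, the liver urea-cycle gene. Group means of Cps1 were 0.663 CPM in control and 4.58 CPM in LPS libraries at D1, and 7.28 and 1.13 CPM at D7, and the part of liver transcripts in those Arg1 values was not tested. The lowest and highest library of 2 lists of myeloid cells were 40.6 and 238 CPM for 9 neutrophil genes (Ly6g at 0 in whole groups at D3 to D49) and 5.03 and 107 CPM for 8 genes of monocytes and interstitial macrophages. The monocyte sum was higher in LPS than in control libraries at all 5 ages, by ranges of 69.1 to 107 against 41.7 to 51.1 CPM at D1 and 67.6 to 71.7 against 10.7 to 13.0 CPM at D49. Transcripts of exocrine gland (7 genes) were 0.234 to 0.618 CPM in D1 controls against 864 to 1330 CPM in D1 LPS libraries and 1310 to 2400 against 7.25 to 9.38 CPM at D49, so they differed between states in opposite directions at these ages, with 4 of the 7 at 0 in D1 controls. Skeletal muscle genes (6) summed lower after LPS without overlap at D1, D7, D21 and D49, with overlapping ranges at D3 (0.333 to 3.83 against 2.63 to 28.1 CPM), at D21 to 0.129 to 0.952 against 22.9 to 273 CPM, and dendritic cell genes (5) summed higher at all 5, at D21 to 37.1 to 39.7 against 6.05 to 11.3 CPM. Erythroid genes (5) summed lower at D49 than at D1, 0.26 to 2.15 against 19.4 to 21.6 CPM in controls, as Arg1 and Nos2 did. The part of these cells in the LPS and age results was not tested. The 8 genes listed for group 2 innate lymphoid cells summed to 122 to 515 CPM, most of it Il7r (104 to 453 CPM) and Rora (10.8 to 179 CPM), while the cytokines Il5 and Il13 reached at most 15 and 9 counts in any library.

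The LPS responses of the members were not shown to differ between D1 and D49. The D49 response minus the D1 response was 0.74 ± 0.31 log2 units for Acod1 (edgeR adjusted p = 0.80), 0.31 ± 0.70 for Nos2 (1.0), -0.06 ± 0.38 for Slc7a2 (1.0) and -0.87 ± 0.44 for Gch1 (1.0). No member passed by edgeR (1, Acod1, at an unadjusted p under 0.05) or DESeq2, where 0.034% of all tested genes had a larger and 0.17% a smaller response at D49. Nos2 took the opposite sign on a scale with a pseudocount, -1.49 on log2(FPKM + 1) (limma adjusted p = 0.012) and -0.922 on log2(FPKM + 0.1) (0.89), so its direction depends on the scale. Over all 5 ages together, the response of Acod1 came nearest to the threshold (adjusted p = 0.0501), and 0.595% of all tested genes passed. It passed with the GC covariate (0.0013), in the 14 libraries (0.016), with DESeq2 (0.00064) and without D1 LPS replicate 2 (0.044) or D3 Con replicate 2 (0.047), over a range of 0.00064 to 0.29 in 33 alternatives. Thus 0 members passed across ages by edgeR, and 2 (Acod1 and Arg1) had an unadjusted p under 0.05. On log2(FPKM + 1) limma called 2, Acod1 (limma adjusted p = 0.043) and Nos2 (0.048), and on log2(FPKM + 0.1) it called 0. Arg1 passed across ages in none of the 33 alternatives. Apart from Acod1, the members had an edgeR adjusted p of 0.987 or more.

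Across the 10 group means of log2 CPM, the genes most like Nos2 were Iqsec2 (Pearson r = 0.991), Acoxl (0.990) and Lrrc8d (0.989). Those most like Acod1 were Actn1 (0.984), Lrrc8d (0.980) and Fnbp1l (0.978). These are descriptions over 10 points that share the LPS and age structure of the series.

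In the wider pathways calls after LPS are set against 5.67%, 7.01%, 9.61%, 13.5% and 10.2% of all tested genes called from D1 to D49, rises and falls together. Among 17 tested genes of ornithine, polyamine and creatine metabolism none passed at any age by edgeR, while 2, 1, 1, 4 and 2 from D1 to D49 had an unadjusted p under 0.05. DESeq2 called 1 at D1 and limma none, and with the GC covariate 3, 2, 4, 4 and 4 passed, where 12.2%, 14.8%, 17.7%, 21.3% and 19.4% of all genes did. The response of the spermidine/spermine acetyltransferase Sat1 was 0.53, 0.35, 0.67, 0.65 and 0.66 from D1 to D49 (adjusted p of 0.063 or more), and the spermine oxidase Smox was 1.36 ± 0.43 at D1 (edgeR adjusted p = 0.082). Sat1 rose with age by 2.13 ± 0.25 in controls (1.3e-05) and 2.26 ± 0.23 after LPS (2.5e-06), and Smox fell by 2.06 ± 0.42 (0.0019) and 2.76 ± 0.47 (0.00046). Of 6 other arginine carriers Slc3a2, the heavy chain of several of them, passed at D21 (1.97 ± 0.49, 0.011). The list of other nitric oxide synthases, methylarginine and cyclic GMP had 4 tested genes, none of them a synthase (Nosip, Nostrin, Prmt1 and Cyb5r3), and gave 1 call, Nostrin at D49 (-1.44 ± 0.40, 0.025). The 3 tested mitochondrial urea-cycle genes gave none by edgeR, with Cps1 at an unadjusted p under 0.05 at D1 and D7, where DESeq2 called 1.

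Of 25 tested genes of the citric acid cycle and of itaconate use, none passed at D1 or D3 by edgeR (1 and 2 at an unadjusted p under 0.05, 0 by DESeq2, 1 each by limma), 1 fell at D7, and 2 fell at D21 and D49, while 4.47%, 6.74% and 4.98% of all tested genes fell at these 3 ages. Cytosolic isocitrate dehydrogenase Idh1 was the one passing at 3 ages, with -0.97 ± 0.29 at D7 (0.037), -1.46 ± 0.27 at D21 (0.00099) and -1.21 ± 0.27 at D49 (0.0054). In controls 1 rose and 11 fell from D1 to D49, where 21.0% of all tested genes rose and 21.9% fell. These counts became 0 and 1 with the GC covariate, a fit in which the shares of all genes came to 5.96% and 4.47%. Itaconate is known to engage the NRF2 and ATF3 programme, and its 11 listed genes were all tested. Of these, 3 fell at D1, 1 rose and 1 fell at D3, and 1 rose and 2 fell at D7. At D21 and D49, 1 rose and 3 fell. Of all tested genes 3.74%, 4.43%, 5.15%, 6.77% and 5.24% rose from D1 to D49, and 1.93%, 2.57%, 4.47%, 6.74% and 4.98% fell. The genes of this list that fell were Nqo1, Gclm and Gclc, known targets of NRF2. Apart from these and Nfkbiz, no gene of the list passed at any age. The median log2 fold change of the 11 genes was -0.14, 0.069, 0.16, 0.28 and -0.051 from D1 to D49, so the list did not fall as a whole. The quinone reductase Nqo1 fell at all 5 ages, by 1.34, 1.22, 1.24, 1.68 and 1.93 from D1 to D49. The glutathione synthesis genes Gclm and Gclc fell at 4 and 3 ages, Gclm by 0.99 at D1 (0.0082) and 1.85 at D49 (3.3e-05). Nfkbiz, which encodes an atypical I-kappa-B protein, rose at D3, D7, D21 and D49, by 1.09, 1.40, 1.63 and 1.74.

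Among 19 regulators known upstream of Nos2, Acod1 or Arg1, all tested, 3 rose at D1. At D3, D7 and D21, 3 rose and 2 fell, and at D49 2 rose and 2 fell. The shares of all tested genes that rose were 3.74%, 4.43%, 5.15%, 6.77% and 5.24% from D1 to D49. Those that fell were 1.93%, 2.57%, 4.47%, 6.74% and 4.98%. Ifnb1, the interferon of the response, rose at all 5 ages, by 3.56 ± 0.74 at D1 (edgeR adjusted p = 0.005) to 4.58 ± 0.84 at D7 (0.0011). Nfkb1, a subunit of the factor that binds kappa B motifs, rose at all 5, by 1.12 to 1.45. The LPS receptor Tlr4 fell at D7, D21 and D49, by 1.57, 1.56 and 1.24. Klf4 fell at D3 to D49, by 1.57 to 1.84. No regulator passed the test across ages by edgeR or DESeq2 (0 at an unadjusted p under 0.05).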

How the data were processed

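Bulk RNA-seq libraries of alveolar macrophages were made from messenger RNA selected with oligo-dT beads, per the labels' protocols, which describe this for samples above an RNA yield and do not say which libraries those are. The authors deposited whole-number read counts per Ensembl gene, together with each gene's exonic length. Per the submitters' processing notes, STAR, DESeq2 and the build GRCm39 were used. No version, counting tool, strand setting or annotation was found in the sources used here. Every value below was computed from those deposited counts.

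Symbols came from GENCODE M21 (52073 of 56691 genes; genes without one held 0.904% of counts). FPKM was used for a filter (1 or higher in at least 2 of 24 libraries) and to compare levels between genes. The 11774 genes left were fitted with edgeR 4.0.16 in R 4.3.3 (TMM, 10 group means, quasi-likelihood test); SE is the log2 fold change over the root of F, and p-values were adjusted over all tested genes by the Benjamini-Hochberg method at 0.05. GC deviation is the median log2 deviation of the 10% of tested genes richest in G and C minus that of the poorest 10%, GC being known for 97.2%. Alternatives used DESeq2 1.42.0, limma 3.58.1, other filters, scalings and libraries. Same-numbered control and LPS libraries were checked for pairing by the correlations of their deviations. These were 0.83 and 0.67 at D1, 0.61 and 0.69 at D3, and 0.56 and 0.29 at D49. At D7 and D21 they were 0.07 to 0.14. As not every age showed pairing, the main fit did not pair the libraries, and a replicate block was 1 of the alternatives. The main LPS tests at D1, D3 and D49 thus leave out deviations that same-numbered libraries shared. GC deviation also followed replicate number: every replicate 1 library lay within 1 log2 unit, and all 10 libraries beyond it were replicate 2 or 3. No replicates were copies (smallest chi-square per degree of freedom 12.4). The fits were tested on simulated data. The named genes are the 10 members, passing genes of the wider lists at 3 or more ages, genes with a role beside a member, and the 3 most similar genes to Nos2 and Acod1. Members, lists and tests were chosen with earlier results of these data known. A few genes of the wider lists are not reported here.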

Additional observations from a re-analysis of the deposited data

How the results depend on the processing

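Of 110 member and comparison pairs, 37 passed in the fit as reported, 20 more passed under some alternative and 53 under none, 23 of which changed sign somewhere. Against TMM, scaling by library totals shifted the median log2 fold change of all genes by -0.23 (D1), -0.12 (D3) and -0.24 (D7), and by -0.44 for D49 against D1 in controls, and moved 30 of 100 group levels by over 1 SD. The number of members that passed the LPS response was 1 in the D1 libraries alone and 1 in the D49 libraries alone, against 3 each, and 5 at D49 with the GC covariate, with or without the replicate block. The share of all tested genes called went from 5.67% to 1.34% at D1, and from 10.2% to 2.59% and 19.4% at D49. At D7 the covariate gave 5 members, against 4, where 17.7% and 9.61% of all genes passed. For D49 against D1 the controls gave 3 with the GC covariate, with or without the block, and 4 in the 14 libraries, against 7, and the LPS-treated cells gave 2 with the covariate, against 5. Of all genes 42.8% were called in controls, 10.4% with the covariate and 12.6% in the 14 libraries, and 30.7% and 15.2% after LPS. On log2(FPKM + 1) the control split of all genes was 10.2% up and 32.9% down, against 21.0% and 21.9%. The difference in response gave 1 on log2(FPKM + 1), where 0.798% of all genes passed, against 0.204%. The response across ages gave 1 with the covariate, with covariate and block and with DESeq2, and 2 on log2(FPKM + 1). Of all genes 2.58%, 2.24%, 1.63% and 1.3% passed in these 4 fits, in that order, against 0.595%. Leaving out 1 library at a time gave 3 to 8 members for control D49 against D1, 2 to 5 for the LPS-treated cells, 2 to 5 for age among LPS-treated cells and 0 to 1 for the response across ages. It also took Ass1 at D3 from -0.903 to 2.04 and the Nos2 difference in response from -0.439 to 1.09. That difference reversed on log2(FPKM + 1), -1.49, and log2(FPKM + 0.1), -0.922. With GC covariate, then with covariate and replicate block, Ass1 in controls reversed to 0.277 and 0.269, and Asl to 0.292 and 0.276. Under the replicate block, whose pairing the data do not show for all ages, 3, 3, 4, 3 and 3 members passed from D1 to D49, 5 in controls and 5 after LPS for D49 against D1, 0 for the difference in response, 4 and 4 for age, and 0 across ages. The shares of all genes in the same order were 5.49%, 6.68%, 9.61%, 12.3%, 9.16%, 31.5%, 33.7%, 0.153%, 26.5%, 17.1% and 0.391%. The block ended the calls of Ass1 (-2.89 in controls and -4.08 after LPS) and of Asl in controls (-1.96), and Acod1 after LPS passed (-0.653). The cause of these changes was not tested. Nos2 in D21 and D49 controls rests on 1 to 5 counts per library.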
